A study of Mus musculus with 48 samples.

Results

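The 10 genes described here make, store or break down the small-molecule mediators of mast cells, and were taken by gene name from the 25528 genes of the count table. They are Hdc, Tph1, Slc18a2 and Maob for the amines histamine and serotonin, Ptgs1, Hpgds and Ptgds for the prostanoids, and Alox5, Alox5ap and Ltc4s for the leukotrienes. All 10 had a row in the table. RNA was sequenced from mouse Cas9-Hoxb8 cells, a progenitor line that a conditional Hoxb8 protein keeps growing, that carries Cas9 and that is labelled GMP (granulocyte and monocyte progenitor). There were 48 libraries in 16 groups of 3. The genotypes were wildtype, E6l2-KO (edited for Ercc6l2), Trp53-KO and E6l2-Trp53-KO, and Hoxb8 and Cas9 were common to all of them, controls included. Each genotype was kept for 48 h in DMSO, the solvent, in Etoposide, a topoisomerase II poison (no concentration is given in the sources used here), or at high cell density (HCD), with 4 M cells seeded per well at high density and 0.25 M otherwise. The remaining 4 groups are clones labelled Etoposide transformed, namely Trp53-KO clones 4 and 6 plus E6l2-Trp53-KO clones 7 and 12, whose RNA was taken with no drug given beforehand.

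Each transformed group is a clone, so a genotype is represented by 2 clones after transformation, and no label points to more than a single edited line per genotype. The DMSO libraries of a genotype serve as controls for its Etoposide, HCD and transformed groups alike, so these comparisons share their controls. Culture time and number of cells seeded are given for the DMSO cells but not for the clones. A change in a clone against DMSO thus cannot be told apart from a difference in culture time, seeding or solvent. A difference between genotypes cannot be told apart from a difference between edited lines. The labels do not say that the 3 libraries of a group came from separate cultures, so p-values measure the spread between these libraries, which may be technical. In RNA from many cells, more cells of a type and more RNA per cell cannot be told apart.

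Library totals ran from 22.5 to 40.9 M counts in the 36 untransformed libraries and from 23 to 114.4 M in the 12 transformed ones, where 2 libraries exceeded 60 M. Trp53 itself stood at 24.8 to 28.7 counts per M counts (CPM) in the DMSO libraries of the genotypes edited for it, and at 73.7 to 84.4 CPM in those of wildtype and E6l2-KO cells. In the clones it stood at 11.5 to 14.3 CPM for Trp53-KO and at 34.4 to 41.0 CPM for E6l2-Trp53-KO. Ercc6l2 was 25.9 to 28.1 CPM in E6l2-KO, 26.7 to 28.0 CPM in E6l2-Trp53-KO and 29.5 to 30.4 CPM in wildtype DMSO cells, and a level near that of wildtype does not check that label. The summed level of 9 progenitor markers such as Mpo and Elane was 4609 to 8844 CPM in untransformed libraries and 1657 to 2236 CPM in the clones. The summed level of 15 mast cell markers such as Cpa3 and Cma1 was 2472 to 4115 CPM in untransformed libraries, where 8 to 10 of the 15 lay under 1 CPM and Fcer1a was at 0 in every group, and 146013 to 195750 CPM in the clones, where none lay under 1 CPM. The markers of the clones thus go against the label GMP, and the clones are called by their labels here. The other marker sums in untransformed libraries and in clones were 333 to 607 and 1400 to 3898 CPM for 8 basophil genes, 13.5 to 42.5 and 41.6 to 53.1 CPM for 9 eosinophil genes, 18.8 to 68.5 and 15.6 to 254 CPM for 7 macrophage genes, 14.8 to 45.4 and 1.44 to 25.9 CPM for 8 neutrophil genes, and 77.8 to 273 and 305 to 655 CPM for 6 megakaryocyte genes. The part of these other cell type genes in the results was not tested.

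Mast cells store histamine and serotonin in granules and make lipid mediators from arachidonic acid when they are activated. Histidine decarboxylase (Hdc) makes histamine, tryptophan hydroxylase 1 (Tph1) starts serotonin synthesis, the vesicular monoamine transporter 2 (Slc18a2) loads amines into granules, and monoamine oxidase B (Maob) breaks amines down. Cyclooxygenase 1 (Ptgs1) starts prostanoid synthesis, and 2 unrelated enzymes, the haematopoietic Hpgds and the lipocalin-type Ptgds, turn its product into prostaglandin D2, the main prostanoid of mast cells. 5-lipoxygenase (Alox5) with its activating protein (Alox5ap) starts leukotriene synthesis, and leukotriene C4 synthase (Ltc4s) adds glutathione to make the cysteinyl leukotrienes.

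All 10 are annotated as protein coding genes (build GRCm38). The amine genes are Hdc (ENSMUSG00000027360) at chr2:126593667-126619299, Tph1 (ENSMUSG00000040046) at chr7:46644641-46672537, Slc18a2 (ENSMUSG00000025094) at chr19:59260896-59296012 and Maob (ENSMUSG00000040147) at chrX:16709282-16817366. The prostanoid genes are Ptgs1 (ENSMUSG00000047250) at chr2:36230426-36252272, Hpgds (ENSMUSG00000029919) at chr6:65117293-65144908 and Ptgds (ENSMUSG00000015090) at chr2:25466709-25470046. The leukotriene genes are Alox5 (ENSMUSG00000025701) at chr6:116410077-116461178, Alox5ap (ENSMUSG00000060063) at chr5:149264767-149288153 and Ltc4s (ENSMUSG00000020377) at chr11:50236461-50238616.

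The promoters of 8 of the 10 genes were found in the RefSeq table (build GRCm38.p6), and 4 of them are shown, 250 bases before the annotated start in the direction of transcription: those of Hpgds and Ptgds, the pair of prostaglandin D2 synthases that moved in opposite directions in the clones, and those of Slc18a2 and Alox5, which rose there. The motifs searched on both strands were GATAA, the core bound by GATA factors, and CACGTG and CATGTG, E-boxes of the kind bound by Mitf. Capitals mark the matches, and TTATC is GATAA on the other strand. The match in Hpgds starts 80 bases before the start, that in Alox5 162 bases and that in Slc18a2 230 bases before it. These starts are those of RefSeq and differ from the gene spans given above for some genes. The Ptgds window lies wholly within the span of its gene. The Hpgds window lies partly within that of Hpgds, and so does its match.
Hpgds, chr6:65144731-65144980, minus strand: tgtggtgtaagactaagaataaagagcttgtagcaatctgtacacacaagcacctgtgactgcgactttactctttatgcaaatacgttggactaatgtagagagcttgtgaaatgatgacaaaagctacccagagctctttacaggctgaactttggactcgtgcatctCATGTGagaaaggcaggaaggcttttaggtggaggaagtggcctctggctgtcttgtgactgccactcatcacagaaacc
Ptgds, chr2:25469750-25469999, minus strand: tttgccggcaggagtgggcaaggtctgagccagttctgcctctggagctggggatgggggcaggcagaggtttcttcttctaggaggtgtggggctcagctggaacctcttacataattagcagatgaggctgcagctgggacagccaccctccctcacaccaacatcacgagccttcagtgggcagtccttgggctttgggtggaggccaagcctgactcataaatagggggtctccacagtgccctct
Slc18a2, chr19:59260628-59260877, plus strand: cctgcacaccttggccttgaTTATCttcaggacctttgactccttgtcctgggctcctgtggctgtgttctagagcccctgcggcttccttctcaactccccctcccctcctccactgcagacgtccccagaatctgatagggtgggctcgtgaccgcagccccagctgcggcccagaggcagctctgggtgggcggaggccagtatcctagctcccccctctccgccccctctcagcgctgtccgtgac
Alox5, chr6:116461179-116461428, minus strand: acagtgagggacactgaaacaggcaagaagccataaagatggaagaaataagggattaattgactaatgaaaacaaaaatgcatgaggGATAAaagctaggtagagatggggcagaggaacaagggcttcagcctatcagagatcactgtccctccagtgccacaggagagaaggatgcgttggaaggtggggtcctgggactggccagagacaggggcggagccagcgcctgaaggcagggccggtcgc

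Among the 9 windows of the 8 genes, 2 held GATAA, 1 held CATGTG and none held CACGTG. All windows with a match are among those shown above. The windows of Hdc, Tph1 and Ltc4s, which also rose in the clones, held no match, nor did that of Ptgs1. Of all 32851 windows of the same length, 22.6% held GATAA, 12.3% held CATGTG and 6.02% held CACGTG. A match describes these letters and does not show a binding site.

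The transformed clones differed from DMSO cells of their own genotype in all 10 genes. In Trp53-KO clones 4 and 6, 8 of the 10 were higher and 2 lower, while 80.4% and 77.5% of the 14403 genes tested were called. In E6l2-Trp53-KO clones 7 and 12, 7 were higher and 3 lower, while 79.5% and 79.7% of all genes were called. The threshold for a call was an adjusted p under 0.05 (edgeR's quasi-likelihood test, Benjamini-Hochberg adjustment over all genes tested). With most genes called, the call itself says little about these 10, and the sizes of the changes are given instead. The median log2 fold change of the 10 was 4.84, 5.06, 3.99 and 4.11 in clones 4, 6, 7 and 12, beside 0.065, 0.002, 0.034 and 0.019 over all genes tested. Tph1, Maob and Alox5 entered this fit through the clones only, since they did not pass the filter on low counts in the untransformed libraries, so these medians do not stand as support.

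Hdc, the enzyme of histamine synthesis, was already well expressed before transformation and rose far more in the Trp53-KO clones than in the E6l2-Trp53-KO clones. In DMSO its level was 386, 392 and 384 CPM for Trp53-KO cells, compared with 327, 348 and 326 CPM for E6l2-Trp53-KO cells. It was 1370, 1353 and 1353 CPM in clone 4 and 1547, 1465 and 1549 CPM in clone 6. In clone 7 it was 405, 407 and 404 CPM, and in clone 12 it was 410, 410 and 415 CPM. The clones of each genotype lay above their own DMSO libraries with no overlap, but those of E6l2-Trp53-KO stayed below every wildtype Etoposide library. The log2 fold change against DMSO was 1.83 ± 0.0444 (SE, adjusted p = 3.45e-20) in clone 4 and 1.96 ± 0.0446 (adjusted p = 1.06e-20) in clone 6. It was 0.29 ± 0.0433 (adjusted p = 2.87e-06) in clone 7 and 0.28 ± 0.0432 (adjusted p = 3.5e-06) in clone 12.

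Tph1, the rate-limiting enzyme of serotonin synthesis outside neurons, did not exceed 0.124 CPM in any untransformed library and was at 0 in 12 of the 36. In the clones it stood at 58.9, 56.9 and 58.2 CPM (clone 4), 39.8, 37.7 and 36.3 CPM (clone 6), 32.3, 30.7 and 31.6 CPM (clone 7) and 34.0, 36.8 and 35.8 CPM (clone 12). Clone 4 lay above the other clones, while clones 6 and 12 overlapped. Against DMSO, where 2 counts in Trp53-KO and 4 in E6l2-Trp53-KO cells were seen over 3 libraries, the ratio was 2341 (95% interval 648 to 19333) in clone 4, 1531 (423 to 12647) in clone 6, 749 (292 to 2752) in clone 7 and 849 (331 to 3116) in clone 12. These intervals cover counting error only.

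Slc18a2, the granule transporter, was measured in every library before transformation, at 21.7 to 65.8 CPM. It was 1059, 1118 and 1087 CPM in clone 4 and 1130, 1053 and 1109 CPM in clone 6. It was 476, 490 and 474 CPM in clone 7 and 603, 649 and 644 CPM in clone 12. The Trp53-KO clones overlapped with each other and lay above both E6l2-Trp53-KO clones, which did not overlap with each other. The log2 fold change against DMSO was 5.35 ± 0.0708 in clone 4 (adjusted p = 8.32e-25), 5.34 ± 0.0707 in clone 6 (adjusted p = 7.84e-25), 3.45 ± 0.0644 in clone 7 (adjusted p = 2.9e-22) and 3.82 ± 0.0654 in clone 12 (adjusted p = 6.04e-23).

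Maob, the oxidase that breaks down amines, had no count in 35 of the 36 untransformed libraries and 0.0355 CPM in the other, a Trp53-KO library at high cell density. Its level was 289, 307 and 302 CPM in clone 4 and 329, 304 and 320 CPM in clone 6. It was 59.1, 59.7 and 54.7 CPM in clone 7 and 68.5, 72.3 and 78.2 CPM in clone 12. Each Trp53-KO clone library lay above every E6l2-Trp53-KO clone library. Against a floor of 3 counts over the DMSO group, Maob was at least 8045-fold higher in clone 4, 8546-fold in clone 6, 1821-fold in clone 7 and 2397-fold in clone 12.

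**Figure D1:**
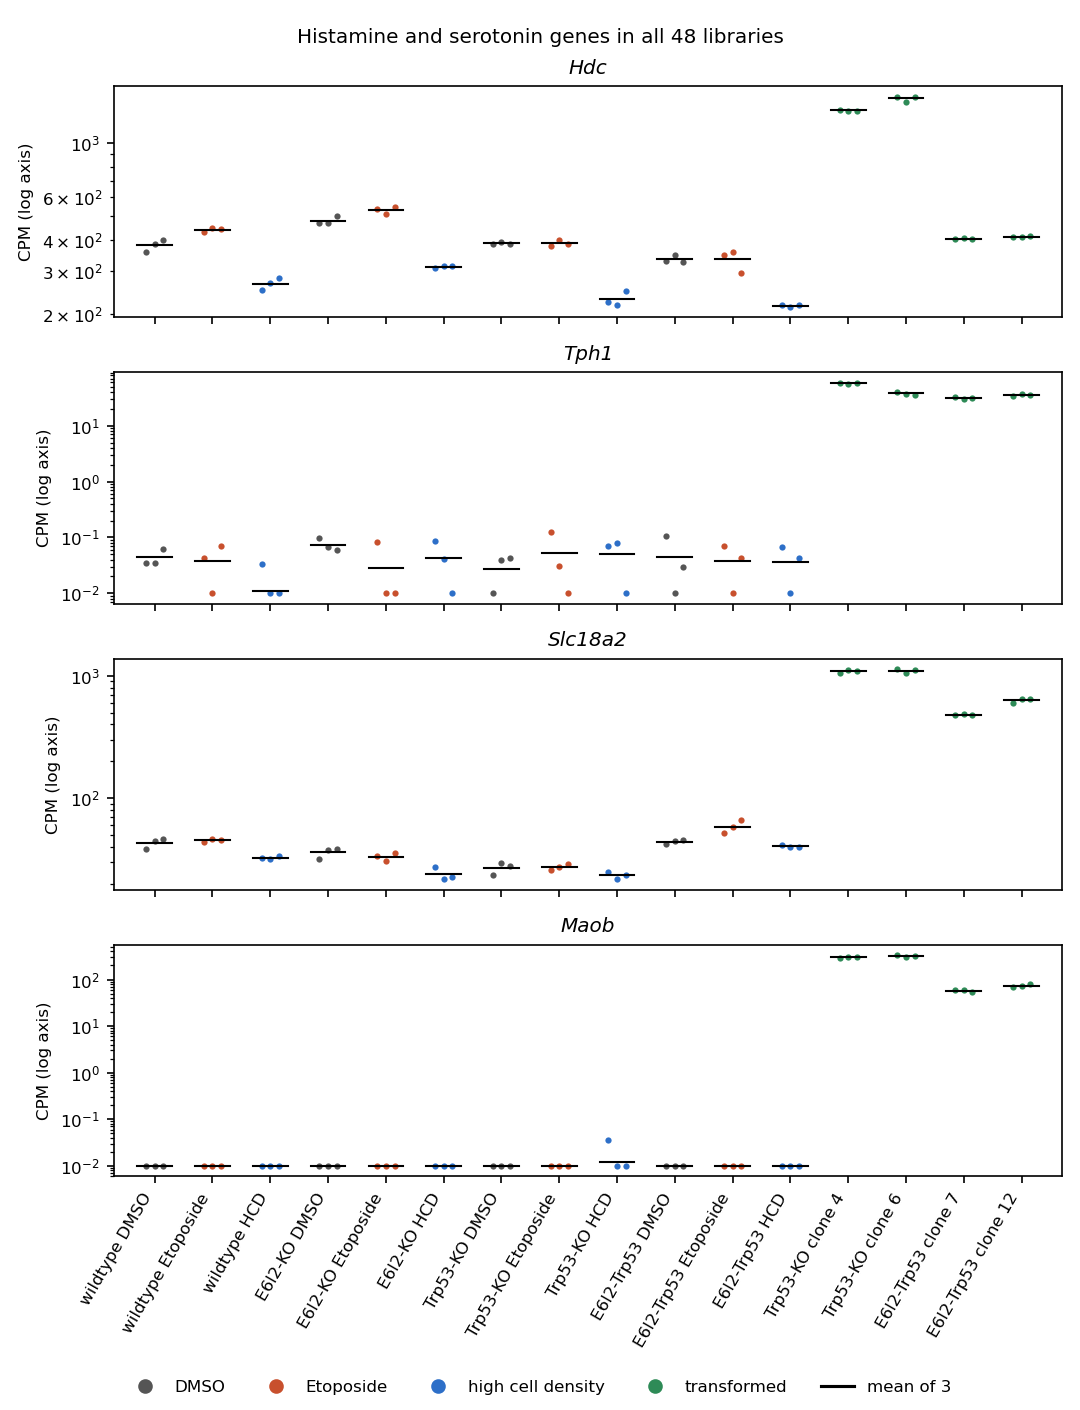
Levels of Hdc, Tph1, Slc18a2 and Maob in CPM on log axes with a scale of their own (points, libraries, lines, means of 3), by group. Libraries at 0 are drawn at the bottom of the axis at 0.01. All 12 clone libraries lie above all 36 untransformed libraries for Tph1, Slc18a2 and Maob, while for Hdc only the Trp53-KO clones (1353 to 1549 CPM) do.

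The 2 prostaglandin D2 synthases changed places. Hpgds, the enzyme that mast cells use, stood at 3.39 to 9.20 CPM in the untransformed libraries. It was 449, 477 and 442 CPM in clone 4, 474, 434 and 477 CPM in clone 6, 431, 438 and 427 CPM in clone 7, and 401, 424 and 417 CPM in clone 12. Its group means varied by a factor of 1.12 among the clones. Its log2 fold change against DMSO was 6.54 ± 0.0933 in clone 4, 6.53 ± 0.0933 in clone 6, 6.52 ± 0.0925 in clone 7 and 6.43 ± 0.0922 in clone 12 (adjusted p from 2.32e-24 to 2.85e-24).

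Ptgds, the lipocalin-type synthase, went the other way. In DMSO it was 20.8, 25 and 20.5 CPM for Trp53-KO cells, compared with 16.5, 19.2 and 16.7 CPM for E6l2-Trp53-KO cells. It was 3.77, 3.66 and 2.88 CPM in clone 4, 7.34, 7.32 and 6.94 CPM in clone 6, 2.31, 2.63 and 2.90 CPM in clone 7, and 2.76, 2.39 and 2.73 CPM in clone 12. The highest clone library lay below the lowest of all 36 untransformed libraries, 15.7 CPM. Its log2 fold change was −2.72 ± 0.107 in clone 4, −1.63 ± 0.1 in clone 6, −2.72 ± 0.118 in clone 7 and −2.74 ± 0.109 in clone 12 (adjusted p from 2.59e-16 to 1.05e-12 in clones 4 and 6, and from 3.09e-16 to 1.53e-15 in clones 12 and 7). Per kb of transcript, the mean level was 22 CPM for Ptgds and 2.27 CPM for Hpgds in wildtype DMSO, and 168 against 2.32 CPM in wildtype HCD. In the clones it was 2.92 to 8.04 CPM per kb for Ptgds and 159 to 178 CPM per kb for Hpgds.

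Ptgs1, which feeds both synthases, fell in all 4 clones, most in those of E6l2-Trp53-KO. In DMSO it was 63.4, 70.9 and 65.8 CPM for Trp53-KO cells, compared with 68.7, 69.9 and 71.2 CPM for E6l2-Trp53-KO cells. It was 32.2, 33.1 and 33.1 CPM in clone 4, 39.6, 40.2 and 41.7 CPM in clone 6, 13.6, 15.8 and 15.3 CPM in clone 7, and 16, 16.2 and 16.1 CPM in clone 12. The log2 fold change was −1.01 ± 0.0476 in clone 4 (adjusted p = 7.83e-15) and −0.73 ± 0.0479 in clone 6 (adjusted p = 3.4e-12). It was −2.23 ± 0.0528 in clone 7 (adjusted p = 2.14e-20) and −2.14 ± 0.0505 in clone 12 (adjusted p = 1.79e-20).

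Of the leukotriene genes, Alox5 and Ltc4s rose in every clone and Alox5ap went up in the Trp53-KO clones and down in the others. Alox5 had no count in 28 of the 36 untransformed libraries and at most 0.0758 CPM in the rest. It was 6.79, 8.15 and 6.39 CPM in clone 4, 9.61, 9.42 and 11.0 CPM in clone 6, 11.3, 10.4 and 12.0 CPM in clone 7, and 12.2, 13.5 and 13.4 CPM in clone 12. Against DMSO it was at least 183-fold higher in clone 4 and 268-fold in clone 6 (floor of 3 counts over the group). The ratio was 269 (95% counting interval 105 to 988) in clone 7 and 315 (123 to 1156) in clone 12, each against 4 counts.

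Ltc4s was 0.470 to 2.24 CPM before transformation. It was 14.5, 12.8 and 13.6 CPM in clone 4, 18.8, 20.4 and 17.7 CPM in clone 6, 16.2, 18.3 and 18.3 CPM in clone 7, and 21.1, 14.8 and 14.2 CPM in clone 12, where replicate 1 stood above the other two libraries. Its log2 fold change against DMSO was 4.33 ± 0.199, 4.78 ± 0.195, 4.54 ± 0.184 and 4.4 ± 0.183 in clones 4, 6, 7 and 12 (adjusted p from 4.5e-16 to 4.6e-15).

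Alox5ap was 179, 166 and 180 CPM in Trp53-KO DMSO cells, 207, 198 and 193 CPM in clone 4 and 253, 247 and 220 CPM in clone 6. The log2 fold change was 0.20 ± 0.0539 (adjusted p = 0.0016) in clone 4 and 0.45 ± 0.054 (adjusted p = 1.1e-07) in clone 6. In E6l2-Trp53-KO cells it was 240, 237 and 235 CPM in DMSO, 127, 138 and 134 CPM in clone 7 and 150, 133 and 138 CPM in clone 12. There it was lower, with a log2 fold change of −0.83 ± 0.0544 (adjusted p = 2.84e-12) in clone 7 and −0.78 ± 0.0541 (adjusted p = 7.57e-12) in clone 12. The clones lay above their DMSO libraries in Trp53-KO and below them in E6l2-Trp53-KO cells, with no overlap in either. Per kb of transcript Alox5ap stood at 207 to 375 CPM in the clones, against 4.02 to 7.39 CPM for Alox5 and 22.4 to 31.2 CPM for Ltc4s.

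**Figure D2:**
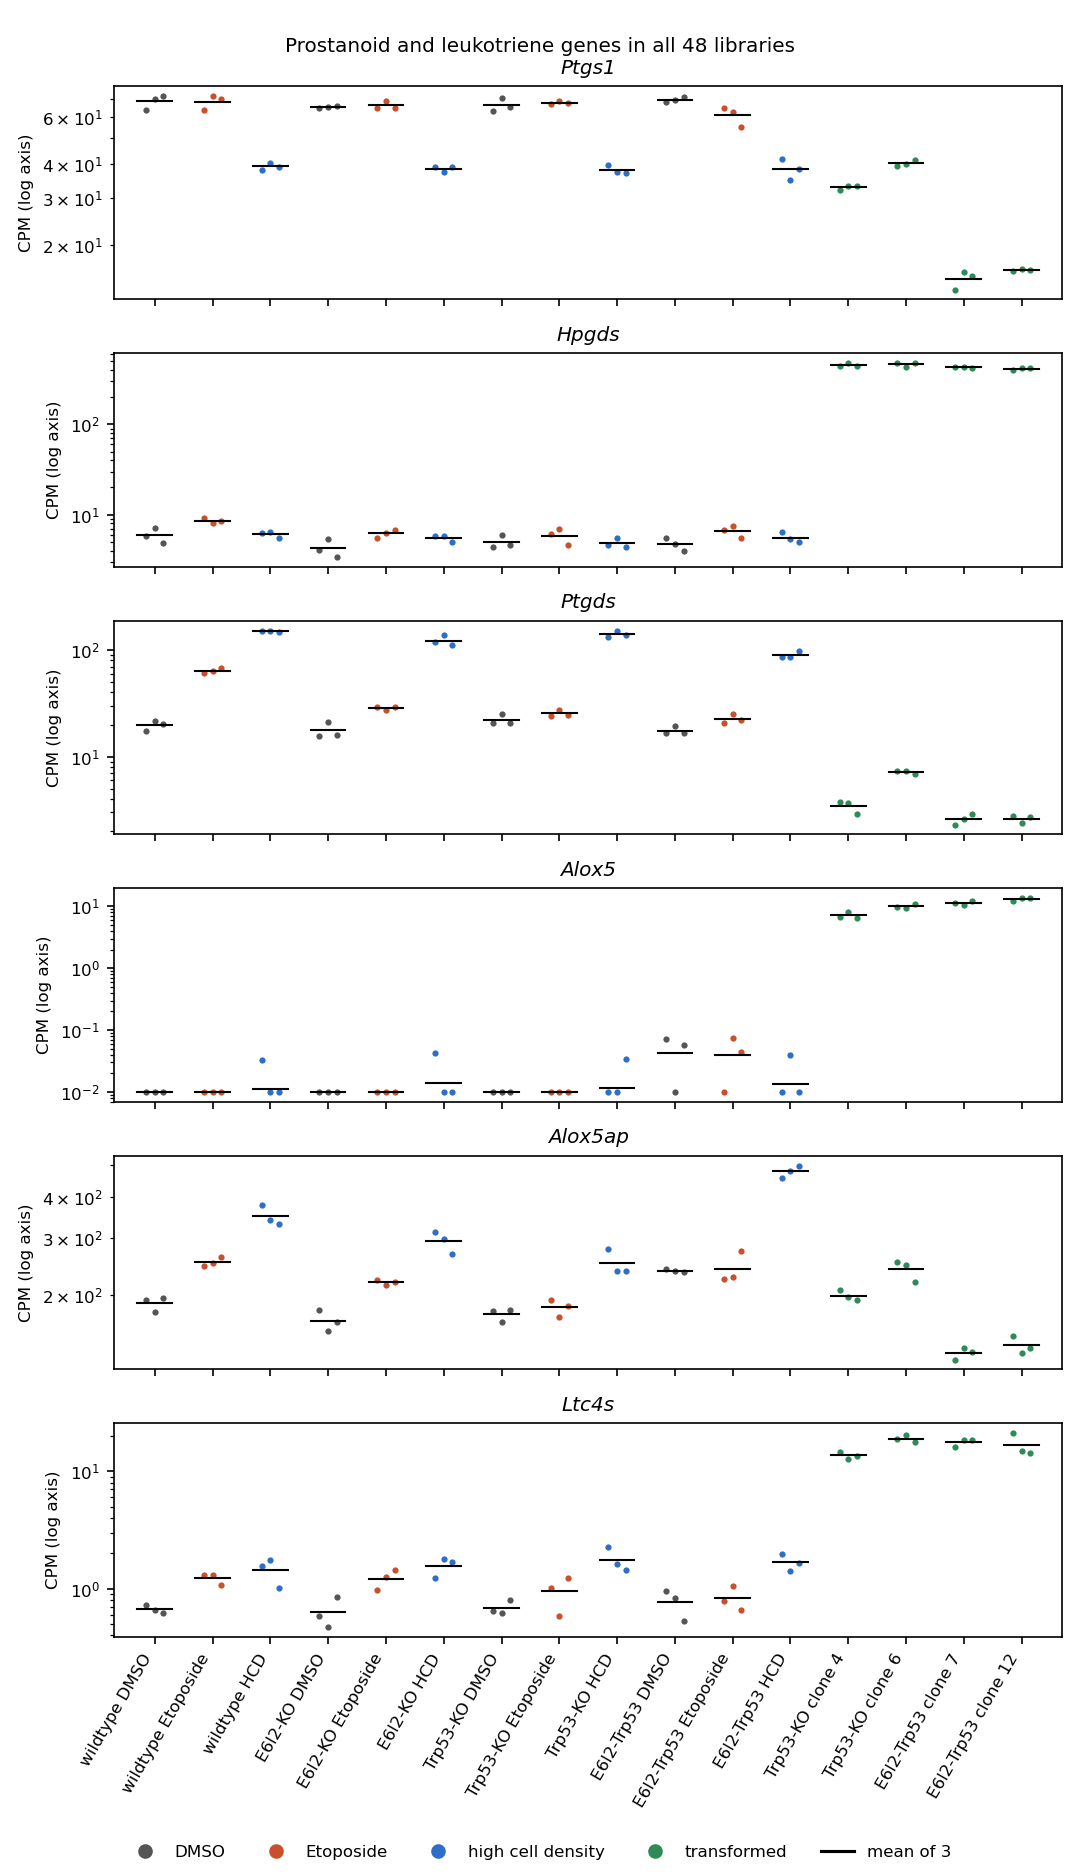
Levels of the 3 prostanoid and 3 leukotriene genes in CPM on log axes with a scale of their own (points, libraries, lines, means of 3), by group. Libraries at 0 are drawn at 0.01. Hpgds, Alox5 and Ltc4s are high in the 12 clone libraries, Ptgds peaks at high cell density (85.9 to 152 CPM) and is lowest in the clones, and Ptgs1 falls at high cell density and in the clones.

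**Figure D3:**
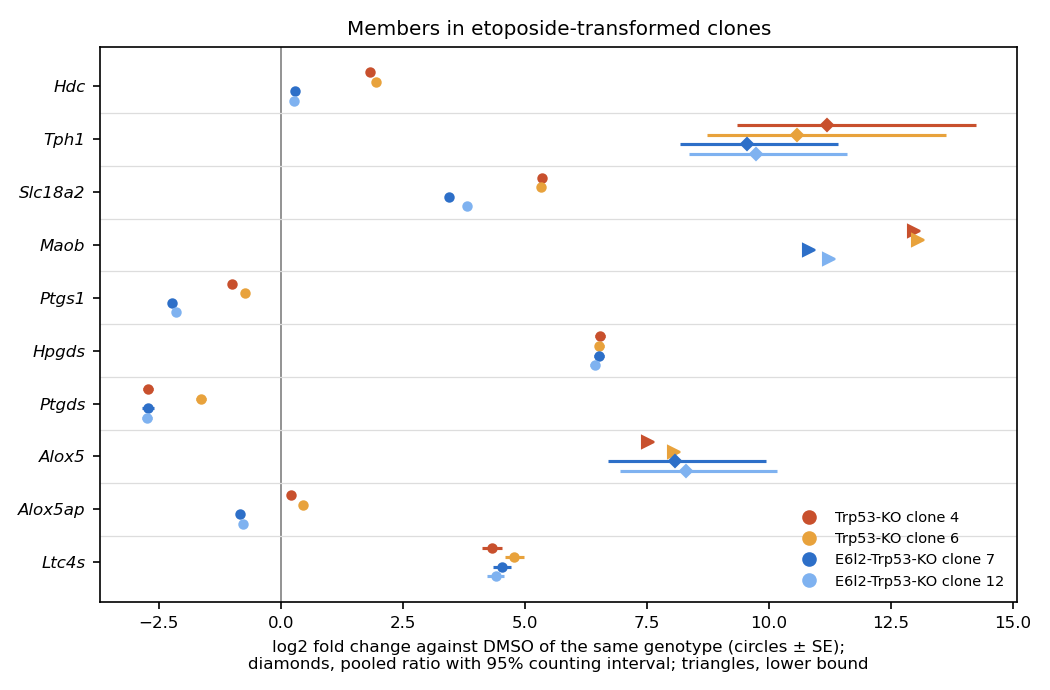
Change of each gene in each clone against DMSO cells of the same genotype, on the log2 scale. Circles are edgeR fold changes with their SE, diamonds the ratio of pooled counts with its 95% counting interval where DMSO held 2 or 4 counts, and triangles lower bounds where DMSO held none. Ptgs1 and Ptgds lie left of 0 in all 4 clones, Alox5ap only in the clones of E6l2-Trp53-KO, and the other genes to the right.

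Clones of the 2 genotypes were compared with the libraries of each clone summed, so that 2 clones stood against 2. There, 5 of the 10 genes were lower in E6l2-Trp53-KO than in Trp53-KO clones and none was higher, while 29.1% of 15865 genes were called. They were Hdc (log2 fold change −1.79 ± 0.115, adjusted p = 0.00109), Maob (−2.20 ± 0.144, adjusted p = 0.00111), Ptgs1 (−1.22 ± 0.125, adjusted p = 0.0029), Slc18a2 (−0.95 ± 0.161, adjusted p = 0.0118) and Alox5ap (−0.67 ± 0.106, adjusted p = 0.00974). Thus 3 of the 4 amine genes were lower. With DESeq2 in place of edgeR on the same sums, Alox5 was also called, higher in E6l2-Trp53-KO clones (0.57, adjusted p = 0.0403). With a single clone left on 1 side, the lone clone being assumed to vary like the pair, Slc18a2 was not called without clone 4 (adjusted p = 0.0549) nor Alox5ap without clone 7 (adjusted p = 0.0635). The other 5 genes were not called: Tph1 (−0.50 ± 0.21, adjusted p = 0.136), Ptgds (−0.95 ± 0.384, adjusted p = 0.125), Hpgds (−0.09 ± 0.0826, adjusted p = 0.465), Alox5 (0.57 ± 0.213, adjusted p = 0.106) and Ltc4s (0.04 ± 0.182, adjusted p = 0.893). Of these, Tph1 was called without clone 6 (−0.75, adjusted p = 0.0143), Ptgds without clone 4 (−1.42, adjusted p = 0.0186) and Alox5 without clone 6 (0.89, adjusted p = 0.0293).

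Within Trp53-KO, clone 6 differed from clone 4 in 7 of the 10 genes (6 higher, 1 lower), while 24% of genes were called. Ptgds was the most different, at a log2 fold change of 1.09 ± 0.121 (adjusted p = 5.47e-07), and Tph1 the lower gene, at −0.64 ± 0.0558 (adjusted p = 1.28e-08). The other 5 were higher in clone 6 by 0.14 (Hdc) to 0.49 (Alox5). The call on Hdc (adjusted p = 0.0251) was lost without clone 4 replicate 2 or 3, or without clone 6 replicate 1 or 3 (adjusted p from 0.0634 to 0.0865). Within E6l2-Trp53-KO, clone 12 exceeded clone 7 in 2 genes, Slc18a2 (0.37 ± 0.0576, adjusted p = 7.65e-05) and Maob (0.32 ± 0.0528, adjusted p = 0.000404), while 13.4% of genes were called. Ltc4s was not called there (−0.14 ± 0.113, adjusted p = 0.464), but without clone 12 replicate 1 it was called lower in clone 12 (−0.32, adjusted p = 0.0105).

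In clones 4, 6, 7 and 12, 80.4%, 77.5%, 79.5% and 79.7% of all genes were called. The list counts below stand beside these shares as a description. Other genes of the amine pathway were read from a list of 19, of which 13 were tested. Of these 13, 6 were higher and 5 lower in each Trp53-KO clone, and 8 were higher and 3 lower in each E6l2-Trp53-KO clone (list median −0.08, 0.04, 0.42 and 0.40 on the log2 scale in clones 4, 6, 7 and 12). Slc6a4, described below, passed the filter of this fit through the clones only, so these counts and medians do not stand as support. Ddc, the decarboxylase that completes serotonin synthesis, was 65.1, 105, 157 and 146 CPM over the pooled libraries of clones 4, 6, 7 and 12, against pooled DMSO levels of 0.31 CPM (Trp53-KO) and 0.631 CPM (E6l2-Trp53-KO). Slc6a4, the plasma membrane serotonin transporter, had no count in Trp53-KO DMSO and 1 count in E6l2-Trp53-KO DMSO cells. It was 200, 207 and 214 CPM in clone 4, 133, 129 and 134 CPM in clone 6, 425, 427 and 436 CPM in clone 7 and 429, 422 and 423 CPM in clone 12. Slc6a4 was thus higher in the E6l2-Trp53-KO clones (1.34 ± 0.221 on the log2 scale, adjusted p = 0.0109), where Hdc, Slc18a2 and Maob were lower. The amine carrier Slc22a3, an organic cation transporter, went from 26.0 to 51.2 CPM in the DMSO libraries of the 2 genotypes to 0.607 to 13.6 CPM in the clones, with log2 fold changes of −1.26 in clone 4, −3.71 in clone 6, −6.02 in clone 7 and −5.72 in clone 12. Slc18a1, the other vesicular monoamine transporter, fell by 1.68, 3.14, 5.24 and 4.32 in clones 4, 6, 7 and 12. Hnmt, which inactivates histamine, was at 0 in all 4 clone groups, and Maoa, the sister enzyme of Maob, was at most 0.396 CPM there. These last 2 genes were named after their values were seen, and no change against DMSO is stated for them.

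Of the prostanoid list, 14 of 19 genes were tested. In clones 4, 6, 7 and 12, 1, 1, 5 and 4 of them were higher and 9, 10, 8 and 8 lower (list median −0.44, −0.76, −0.30 and −0.37). The prostanoid exporter Abcc4 fell in every clone, by 1.66, 1.57, 1.27 and 1.35 on the log2 scale, and Ptges3, a prostaglandin E synthase, fell by 1.17, 1.05, 1.23 and 1.23. Cbr1, a carbonyl reductase that acts on prostaglandins, was 5.54 ± 0.326 higher on the log2 scale in E6l2-Trp53-KO than in Trp53-KO clones (adjusted p = 0.00102). Cbr1 stood at 3.97 to 7.47 CPM in clones 7 and 12 and 0.0392 to 0.220 CPM in clones 4 and 6. It was already at 0.116 to 0.210 CPM in Trp53-KO DMSO cells, against 2.01 to 2.61 CPM in wildtype and 2.13 to 2.36 CPM in E6l2-Trp53-KO DMSO cells.

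Of the leukotriene list, 10 of 16 genes were tested against DMSO. In clones 4, 6, 7 and 12, 5, 3, 6 and 6 were higher and 4, 3, 2 and 2 lower (list median 0.53, 0.08, 0.46 and 0.97). Cyp4f18, which inactivates leukotriene B4, rose in clones 4 and 6 (2.11 ± 0.092 and 2.73 ± 0.0904) and fell in clones 7 and 12 (−1.86 ± 0.109 and −1.64 ± 0.0964). Lta4h, the enzyme that makes leukotriene B4, fell by 0.34, 0.19, 0.11 and 0.12 in clones 4, 6, 7 and 12.

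Among receptors for these mediators, 12 of 21 were tested. In clones 4, 6, 7 and 12, 5, 4, 5 and 5 were higher and 6, 7, 7 and 7 lower (list median −0.70, −1.18, −1.30 and −0.88). In the untransformed fit 10 of the 21 were tested, so these counts and medians do not stand as support. Hrh4, the histamine H4 receptor, had no count in DMSO cells of either genotype and stood at 76.5 to 87.2 CPM in the clones, at least 2135-fold higher in clone 4, 2319-fold in clone 6, 2469-fold in clone 7 and 2699-fold in clone 12. Ptger2, a prostaglandin E2 receptor, stood at 17.6 to 22.4 CPM in the DMSO libraries and at most 1.10 CPM in the clones. The serotonin receptor Htr1b fell by 4.13, 4.83, 4.70 and 3.85 on the log2 scale in clones 4, 6, 7 and 12.

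All 12 genes of a list of mast cell regulators were tested, and 9 were higher and 3 lower in each clone. The list median was 1.10, 1.10, 1.23 and 1.29 in clones 4, 6, 7 and 12, beside 0.065, 0.002, 0.034 and 0.019 over all genes. In the untransformed fit 11 of the 12 were tested, so these counts and medians do not stand as support. Gata1, a GATA factor of the mast, erythroid and megakaryocyte lineages, rose by 7.81, 7.87, 5.67 and 5.69 on the log2 scale, and Meis2 by 8.77, 8.50, 8.98 and 8.81. Mitf, the E-box factor that mast cells need, rose by 4.85, 4.83, 5.25 and 5.19 in clones 4, 6, 7 and 12. Cebpa, a factor of the granulocyte and monocyte lineages, fell by 6.43, 9.87, 7.06 and 4.54. Tfec, another regulator on the list, fell, with log2 fold changes of −3.69, −9.24, −3.71 and −1.35 in clones 4, 6, 7 and 12. Mitf and Cebpa are also in the marker lists whose sums are given above.

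Among the untransformed cells, high cell density moved the most members. Of the 7 members tested, 3 rose in every genotype, namely Ptgds, Alox5ap and Ltc4s. Hdc and Ptgs1 fell in every genotype, and Slc18a2 fell in wildtype and E6l2-KO cells. The share of all 14059 genes called was 48.5% in wildtype, 40.7% in E6l2-KO, 44.7% in Trp53-KO and 46.2% in E6l2-Trp53-KO cells, against 6, 6, 5 and 5 of the 7 members. Beside these changes, the summed progenitor markers ran from 5757 to 6295 CPM in wildtype DMSO and from 8217 to 8844 CPM in wildtype HCD libraries. The 15 mast cell markers summed to 2692 to 2777 and 2750 to 2910 CPM, the macrophage markers to 18.8 to 19.9 and 41.1 to 44.9 CPM and the megakaryocyte markers to 79.9 to 94.1 and 137 to 167 CPM. The eosinophil markers summed to 13.8 to 15.6 and 28.8 to 32.4 CPM, the basophil markers to 369 to 430 and 558 to 607 CPM and the neutrophil markers to 14.8 to 21.8 and 30.7 to 33.3 CPM. In all 4 genotypes the HCD libraries lay above the DMSO libraries in the sums of the progenitor, basophil, eosinophil, macrophage, neutrophil and megakaryocyte markers, and overlapped with them in that of the mast cell markers. The part of these markers in the changes was not tested.

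Ptgds changed most. Its level in wildtype cells was 17.6, 21.5 and 20.1 CPM in DMSO and 151, 152 and 148 CPM at high density. In E6l2-KO cells it went from 15.7, 21.2 and 16 CPM to 120, 137 and 111 CPM. In Trp53-KO cells it went from 20.8, 25 and 20.5 CPM to 132, 151 and 137 CPM, and in E6l2-Trp53-KO cells from 16.5, 19.2 and 16.7 CPM to 85.9, 86.1 and 97.0 CPM. Every high density library lay above every library of the other 12 groups. On the log2 scale this was a change of 2.91 ± 0.0952 in wildtype (adjusted p = 7.21e-22), 2.79 ± 0.0961 in E6l2-KO (adjusted p = 3.71e-21), 2.68 ± 0.0951 in Trp53-KO (adjusted p = 5.13e-21) and 2.37 ± 0.0962 in E6l2-Trp53-KO cells (adjusted p = 1.84e-19). The tests of the difference between genotypes did not call it (log2 −0.12 for E6l2-KO against wildtype, −0.24 for Trp53-KO against wildtype and −0.30 for E6l2-Trp53-KO against Trp53-KO, with adjusted p of 1, 0.403 and 0.517).

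Alox5ap was 193, 178 and 196 CPM in wildtype DMSO and 378, 339 and 331 CPM in wildtype HCD libraries. Its log2 fold change was 0.87 ± 0.07 in wildtype (adjusted p = 4.36e-12), 0.81 ± 0.0702 in E6l2-KO (adjusted p = 3.6e-11), 0.53 ± 0.0701 in Trp53-KO (adjusted p = 1.74e-07) and 1.03 ± 0.0699 in E6l2-Trp53-KO cells (adjusted p = 7.5e-14). In Trp53-KO it went from 179, 166 and 180 CPM to 277, 238 and 237 CPM, and in E6l2-Trp53-KO from 240, 237 and 235 CPM to 459, 479 and 499 CPM. The response of E6l2-Trp53-KO exceeded that of Trp53-KO cells (log2 difference 0.50 ± 0.0985, adjusted p = 0.0107), and Alox5ap was the 1 member called in that test, where 0.334% of genes were. That call was lost without Trp53-KO HCD replicate 2, E6l2-Trp53-KO HCD replicate 3 or E6l2-Trp53-KO DMSO replicate 3 (adjusted p of 0.052, 0.0574 and 0.0537). When the HCD responses of E6l2-KO and of Trp53-KO were tested against wildtype, none of the 7 members was called, with 0.00711% and 0.0925% of genes called. With no filter on low counts, Alox5ap was called in the test of Trp53-KO, with a smaller response than wildtype (−0.38, adjusted p = 0.0138). At an unadjusted p under 0.05 none of the 7 (E6l2-KO) and 2 of the 7 (Trp53-KO) differed, among 611 and 2025 genes. DESeq2 called no member in either test.

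Ltc4s was 0.727, 0.662 and 0.619 CPM in wildtype DMSO and 1.56, 1.76 and 1.02 CPM in wildtype HCD libraries. On the log2 scale Ltc4s changed by 1.09 ± 0.277 in wildtype (adjusted p = 0.00162), 1.29 ± 0.278 in E6l2-KO (adjusted p = 0.000331), 1.37 ± 0.277 in Trp53-KO (adjusted p = 0.000121) and 1.15 ± 0.268 in E6l2-Trp53-KO cells (adjusted p = 0.000587). The high density libraries of each genotype lay above its DMSO libraries, at a level far under that of the clones.

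Ptgs1 fell from 64.0, 70.2 and 72.3 CPM to 38.1, 40.6 and 39.2 CPM in wildtype cells. On the log2 scale Ptgs1 changed by −0.83 ± 0.0597 in wildtype, −0.77 ± 0.0603 in E6l2-KO, −0.80 ± 0.0604 in Trp53-KO and −0.85 ± 0.0601 in E6l2-Trp53-KO cells (adjusted p from 1.89e-13 to 3.59e-12). Hdc fell from 359, 385 and 400 CPM to 249, 267 and 280 CPM in wildtype cells. On the log2 scale Hdc changed by −0.54 ± 0.0607 in wildtype (adjusted p = 7.14e-09), −0.63 ± 0.0607 in E6l2-KO (adjusted p = 3.3e-10), −0.75 ± 0.061 in Trp53-KO (adjusted p = 6.17e-12) and −0.61 ± 0.061 in E6l2-Trp53-KO cells (adjusted p = 4.52e-10). The HCD and DMSO libraries of these genes did not overlap within any genotype.

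Slc18a2 fell at high density from 38.3, 44.4 and 46.0 to 32.7, 31.7 and 33.6 CPM in wildtype (−0.41 ± 0.084, adjusted p = 0.000146) and from 31.9, 37.7 and 38.5 to 27.2, 21.7 and 22.7 CPM in E6l2-KO cells (−0.60 ± 0.088, adjusted p = 1.42e-06). It was not called in Trp53-KO (−0.18 ± 0.0903, adjusted p = 0.111) or E6l2-Trp53-KO cells (−0.11 ± 0.083, adjusted p = 0.302). In Trp53-KO it was called with no filter on low counts (−0.19, adjusted p = 0.0386), with an offset for transcript length (−0.21, adjusted p = 0.048) and without DMSO replicate 1 (−0.26, adjusted p = 0.0285). The difference in response between Trp53-KO and wildtype cells was 0.23 ± 0.123 and was not called (adjusted p = 0.378). Hpgds was called in no genotype at high density (log2 fold changes from −0.04 to 0.38). In E6l2-KO cells it was called with no filter (0.38, adjusted p = 0.0229), with the replicate number as a block (0.39, adjusted p = 0.0232), with all 48 libraries in 1 fit (0.39, adjusted p = 0.0417) and without DMSO replicate 2 (0.59, adjusted p = 0.011). In the pathway lists, the amine carrier Slc22a3 fell in all 4 genotypes (−0.73 in wildtype, −0.73 in E6l2-KO, −0.62 in Trp53-KO and −0.82 in E6l2-Trp53-KO cells). Pla2g4a, the phospholipase that frees arachidonic acid, fell as well (−0.43, −0.35, −0.44 and −0.65 in that order), and Ptger2 rose (0.95, 0.97, 0.74 and 0.87).

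Over the lists, in the order wildtype, E6l2-KO, Trp53-KO, E6l2-Trp53-KO, the amine list had 4, 4, 3 and 2 genes up and 3, 2, 2 and 4 down of 13 tested. The prostanoid list had 1, 3, 3 and 4 up and 7, 7, 6 and 6 down of 14, the leukotriene list 2, 2, 3 and 5 up and 3, 2, 1 and 0 down of 10, the receptors 3, 4, 5 and 3 up and 2, 2, 2 and 3 down of 10, and the mast cell regulators 4, 3, 4 and 3 up and 3, 3, 2 and 2 down of 11. Against the shares of all genes called, these counts are given as a description.

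**Figure D4:**
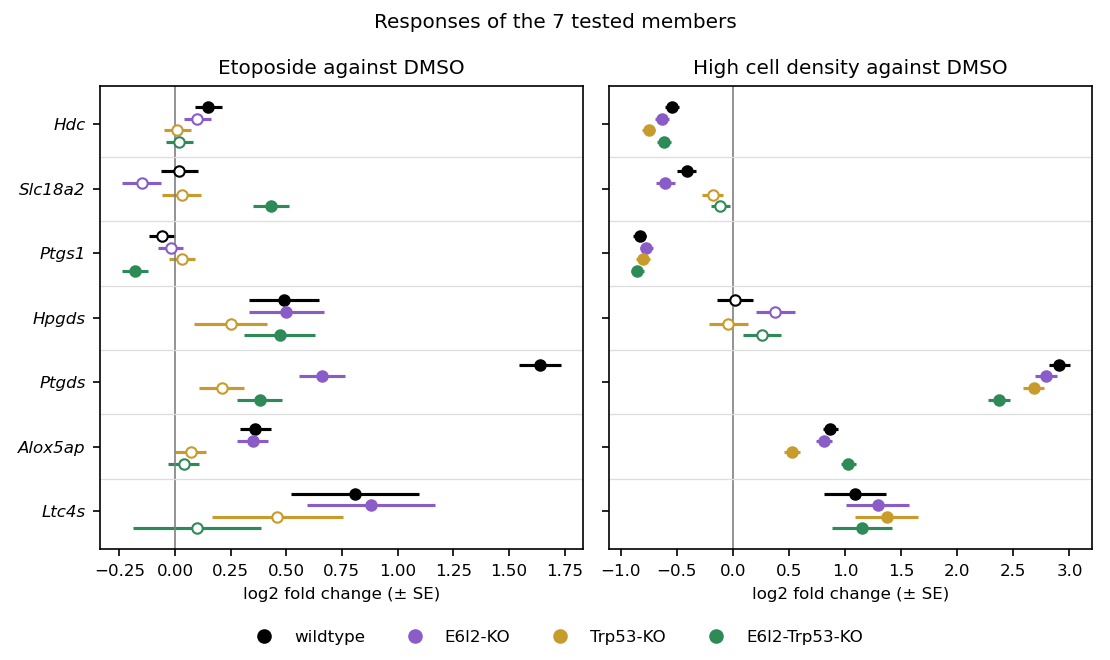
Log2 fold changes with SE of the 7 members tested in untransformed cells, for Etoposide (left) and high cell density (right) against DMSO in each genotype. Filled points were called at an adjusted p under 0.05. Ptgds rises by 2.37 to 2.91 at high density in all genotypes, and under Etoposide by 1.64 in wildtype but 0.21 to 0.66 in the others.

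Under Etoposide, Ptgds had the largest change of the 7 members in wildtype cells. There, 5 of the 7 members rose and none fell, with 41.5% of all genes called. In E6l2-KO cells 4 rose and none fell (35% of genes called), in E6l2-Trp53-KO cells 3 rose and 1 fell (13.2%), and in Trp53-KO cells none was called (0%). In Trp53-KO, edgeR called no gene at all, DESeq2 called 0, and 468 genes had an unadjusted p under 0.05, Ptgds being the member among them. Beside these changes, the summed progenitor markers stood at 7343 to 7787 CPM in wildtype Etoposide against 5757 to 6295 CPM in wildtype DMSO libraries, and the mast cell markers at 3642 to 3761 against 2692 to 2777 CPM. In the same wildtype libraries the basophil markers stood at 454 to 466 against 369 to 430 CPM, the megakaryocyte markers at 105 to 112 against 79.9 to 94.1 CPM, the macrophage markers at 25.5 to 29 against 18.8 to 19.9 CPM, the neutrophil markers at 23.2 to 24.4 against 14.8 to 21.8 CPM and the eosinophil markers at 17 to 17.7 against 13.8 to 15.6 CPM. The progenitor markers stood at 7893 to 7929 against 5722 to 6743 CPM in E6l2-KO cells, while in Trp53-KO (6205 to 6966 against 6300 to 7003 CPM) and E6l2-Trp53-KO cells (4609 to 4931 against 4821 to 5433 CPM) the groups overlapped. In E6l2-KO cells the mast cell markers stood at 3727 to 3783 against 3009 to 3147 CPM, in Trp53-KO cells at 2744 to 2779 against 2495 to 2734 CPM, and in E6l2-Trp53-KO cells at 3560 to 4115 against 3042 to 3181 CPM. The part of these markers in the Etoposide results was not tested.

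Ptgds rose from 17.6, 21.5 and 20.1 CPM to 60.8, 64.2 and 67.5 CPM in wildtype cells (1.64 ± 0.096, adjusted p = 1.51e-14). In E6l2-KO cells it rose from 15.7, 21.2 and 16 CPM to 29.4, 27.7 and 29.3 CPM (0.66 ± 0.102, adjusted p = 9.39e-06). In Trp53-KO cells it was 24.2, 27.6 and 24.6 CPM under Etoposide (0.21 ± 0.0999, adjusted p = 1), overlapping with DMSO. In E6l2-Trp53-KO cells it was 20.5, 24.9 and 22.2 CPM (0.38 ± 0.101, adjusted p = 0.0131), above the DMSO libraries, and that call was lost without DMSO replicate 1 or 3 or Etoposide replicate 2 or 3 (adjusted p from 0.0507 to 0.0681).

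The difference between genotypes was tested directly. The response of Ptgds was smaller in E6l2-KO than in wildtype cells by 0.98 on the log2 scale (−0.98 ± 0.14, adjusted p = 0.000722), where 0.0142% of genes, 2 in number, were called. It was smaller in Trp53-KO than in wildtype cells by 1.43 (−1.43 ± 0.139, adjusted p = 2.89e-08), where 23.2% of genes and 2 of the 7 members were called, both lower. The other member was Alox5ap (−0.29 ± 0.0989, adjusted p = 0.0323), a call lost without wildtype Etoposide replicate 3 or Trp53-KO DMSO replicate 1 or 3 (adjusted p from 0.0673 to 0.0775). Between E6l2-Trp53-KO and Trp53-KO cells none of the 7 was called (0.206% of genes, 29 in number). Slc18a2 and Ptgs1 had an unadjusted p under 0.05 among 1920 such genes, and DESeq2 called no member. Without E6l2-Trp53-KO Etoposide replicate 1, Slc18a2 was called (0.46, adjusted p = 0.0392), as it was with no filter (0.38, adjusted p = 0.0222).

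Hpgds rose in wildtype from 5.81, 7.03 and 4.86 to 9.20, 8.09 and 8.50 CPM (0.49 ± 0.157, adjusted p = 0.0128), and also in E6l2-KO (0.50 ± 0.169, adjusted p = 0.0197) and E6l2-Trp53-KO cells (0.47 ± 0.161, adjusted p = 0.0469). In E6l2-KO the Hpgds call was lost without DMSO replicate 1 or 3 or Etoposide replicate 2 or 3 (adjusted p from 0.0514 to 0.0896), and in E6l2-Trp53-KO without DMSO replicate 2 or 3 or Etoposide replicate 1 or 2 (adjusted p from 0.0858 to 0.225). Alox5ap rose in wildtype to 246, 251 and 262 CPM (0.36 ± 0.0699, adjusted p = 9.62e-05) and in E6l2-KO to 223, 215 and 219 CPM (0.35 ± 0.0701, adjusted p = 0.000263). Ltc4s rose to 1.30, 1.30 and 1.08 CPM in wildtype (0.81 ± 0.287, adjusted p = 0.0232) and to 0.965, 1.25 and 1.43 CPM in E6l2-KO cells (0.88 ± 0.289, adjusted p = 0.0173). Leaving out wildtype Etoposide replicate 1 or 2 ended the former call (adjusted p of 0.0588 and 0.0653), and leaving out E6l2-KO DMSO replicate 1 or 2 or Etoposide replicate 3 the latter (adjusted p from 0.0528 to 0.0932).

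Alox5ap, Ltc4s and Ptgds have the shortest transcripts of the 10 genes, 0.64, 0.61 and 0.90 kb. With an offset for transcript length in each library, the Etoposide change of Alox5ap was 0.02 in wildtype (adjusted p = 0.82) and 0.13 in E6l2-KO cells (adjusted p = 0.143), that of Ltc4s was 0.45 (adjusted p = 0.196) and 0.65 (adjusted p = 0.0708), and that of Ptgds 1.44 (adjusted p = 1.18e-12) and 0.51 (adjusted p = 0.000465). The difference of Alox5ap between Trp53-KO and wildtype cells became 0.02 (adjusted p = 0.929). With the same offset Slc18a2 was called higher under Etoposide in wildtype cells (0.21, adjusted p = 0.0383), and the Hpgds call in E6l2-Trp53-KO cells was lost (0.42, adjusted p = 0.0733). At high cell density all calls on these 3 genes held with that offset. In the clones against DMSO, the offset gave Alox5ap changes of 0.48, 0.63, −0.67 and −0.52 in clones 4, 6, 7 and 12, all called in the same direction as without it, and Alox5ap was then called higher in clone 12 than in clone 7 (0.16, adjusted p = 0.0124).

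Hdc rose under Etoposide in wildtype cells, from 359, 385 and 400 to 432, 447 and 445 CPM (0.15 ± 0.0604, adjusted p = 0.0445), a call lost without any 1 of the 3 wildtype Etoposide libraries (adjusted p of 0.0537, 0.104 and 0.101). In E6l2-KO cells (0.10) it was called with all 48 libraries in 1 fit (0.14, adjusted p = 0.0319) and without DMSO replicate 3 (0.17, adjusted p = 0.0468). Its response in E6l2-KO and Trp53-KO cells (0.01) was not shown to differ from that in wildtype (adjusted p of 0.945 and 0.226), though without wildtype DMSO replicate 3 the latter difference was called (−0.24, adjusted p = 0.0383), as it was with all 48 libraries in 1 fit (−0.21, adjusted p = 0.0368). In E6l2-Trp53-KO cells, Slc18a2 rose from 42.2, 44.7 and 45.5 to 51.6, 58.1 and 65.8 CPM (0.43 ± 0.0806, adjusted p = 0.000666) and Ptgs1 fell from 68.7, 69.9 and 71.2 to 64.8, 62.7 and 55.4 CPM (−0.18 ± 0.0577, adjusted p = 0.0322). Replicate 3 of this Etoposide group, the deepest untransformed library at 40.9 M counts, held the highest Slc18a2 and the lowest Ptgs1 level of the 3. Without it the Ptgs1 change was −0.13 (adjusted p = 0.179), as it was not called without DMSO replicate 1 or 3 (adjusted p of 0.0507 and 0.0564). Fitted on the 6 libraries of that contrast alone, none of the 4 members was called (adjusted p of 0.0634 for Slc18a2, 0.235 for Ptgs1, 0.177 for Hpgds and 0.0983 for Ptgds).

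In the pathway lists, taking the genotypes in the same order, Etoposide raised 4, 3, 0 and 0 and lowered none of 13 amine genes. It raised 3, 4, 0 and 1 and lowered 4, 3, 0 and 0 of 14 prostanoid genes, raised 2, 1, 0 and 3 and lowered 1, 1, 0 and 0 of 10 leukotriene genes, raised 0, 3, 0 and 2 and lowered 0, 1, 0 and 1 of 10 receptors, and raised 1, 4, 0 and 3 and lowered 1, 1, 0 and 0 of 11 mast cell regulators. The shares of all genes called were 41.5%, 35%, 0% and 13.2% in that order, and the list counts are given as a description. In Trp53-KO cells no list gene could be called, since no gene at all was. Pla2g6, a calcium-independent phospholipase, fell in wildtype (−0.48 ± 0.082, adjusted p = 1.87e-05) and E6l2-KO cells (−0.41 ± 0.0813, adjusted p = 0.000215). Mgst2, which can also make leukotriene C4, rose in E6l2-Trp53-KO cells (1.05 ± 0.143, adjusted p = 1e-05).

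Between genotypes in DMSO, 1 of the 7 members differed in each comparison against wildtype and 4 differed between E6l2-Trp53-KO and Trp53-KO cells. E6l2-KO exceeded wildtype cells in Hdc alone of the 7, at 468, 472 and 500 against 359, 385 and 400 CPM (0.32 ± 0.0604, adjusted p = 0.000692), while 4.05% of genes were called. Slc18a2 (−0.27, adjusted p = 0.0626) and Hpgds (−0.49, adjusted p = 0.0997) were not called there, but were with no filter on low counts (adjusted p of 0.0168 and 0.0171). They were also called without single libraries, Slc18a2 without wildtype DMSO replicate 1 (adjusted p = 0.0331) and Hpgds without E6l2-KO DMSO replicate 2 or wildtype DMSO replicate 3 (adjusted p of 0.0232 and 0.046). With the replicate block both were called (adjusted p of 0.0384 and 0.0245). Slc18a2 was called by DESeq2 (adjusted p = 0.0475) and with the 2 groups fitted alone (adjusted p = 0.0254). Alox5ap was called lower with the length offset (−0.24, adjusted p = 0.0261) and with the groups fitted alone (−0.20, adjusted p = 0.0336). In Trp53-KO against wildtype cells 9.03% of genes and 1 member were called. This was Slc18a2, lower at 23.8, 29.3 and 27.9 against 38.3, 44.4 and 46.0 CPM (−0.70 ± 0.086, adjusted p = 3.48e-07). In E6l2-Trp53-KO against Trp53-KO cells 14.9% of genes were called, and 2 members were higher and 2 lower. Slc18a2 was higher at 42.2, 44.7 and 45.5 CPM (0.72 ± 0.0857, adjusted p = 6.96e-08), and so was Alox5ap at 240, 237 and 235 CPM (0.44 ± 0.07, adjusted p = 1.24e-05). Hdc was lower (−0.21 ± 0.0605, adjusted p = 0.0125) and Ptgds was lower with overlapping libraries (−0.33 ± 0.103, adjusted p = 0.0238). The Hdc call was lost without E6l2-Trp53-KO DMSO replicate 1 or 3 (adjusted p of 0.0515 and 0.0688), and the Ptgds call without those or Trp53-KO DMSO replicate 2 (adjusted p from 0.091 to 0.196). The level of Slc18a2 in E6l2-Trp53-KO was thus higher than in Trp53-KO cells in DMSO, and lower in the clones.

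Across the 16 groups the order of the levels differed between members. Hdc was highest in clone 6 and lowest in E6l2-Trp53-KO HCD cells (216 CPM), a span of 7.04-fold between group means. In that order the 5 groups from Trp53-KO Etoposide down to E6l2-Trp53-KO DMSO each overlapped with the next, as did the HCD groups of Trp53-KO and E6l2-Trp53-KO. Slc18a2 spanned 46.5-fold and Hpgds 109-fold between the clones and the lowest group, and Hpgds groups overlapped throughout the 11 lowest. Ptgds spanned 57.3-fold, from clone 7 to wildtype HCD cells, and its 4 HCD groups ranked highest, followed by wildtype Etoposide. Alox5ap spanned 3.60-fold, from clone 7 to E6l2-Trp53-KO HCD cells (479 CPM).

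As a description, group means of log2 levels were correlated between genes over the 16 groups, which share libraries, scaling and the contrast between clones and other cells. Pearson's r was 1.00 between Tph1 and Hpgds, 0.98 between Tph1 and Slc18a2, 0.98 between Hpgds and Ltc4s and −0.81 between Tph1 and Ptgds. Over the 12 untransformed groups alone, r for the same pairs was −0.45, −0.01, 0.22 and −0.37, with Tph1 near 0 CPM. The high values over 16 groups thus rest on the clones. Among the untransformed groups, Ptgds followed Ltc4s (r = 0.93) and Alox5ap (0.74) and ran against Ptgs1 (−0.90). The HCD groups held the highest Ptgds and Ltc4s and the lowest Ptgs1 means of the untransformed groups, so these values largely restate the change at high density. Ptgds, Ltc4s and Alox5ap also have the shortest transcripts of the members. The genes whose pattern was most like that of a member, of 10209 genes with at least 5 CPM in some group, were Cr1l (0.979), Dicer1 (0.964) and Prelid3b (0.964) for Hdc, and Trank1, Mrgpra3 and Cma2 for Tph1 (0.999 each). They were Frmpd1, Mrgpre and Lrp12 for Slc18a2 (0.991 each), and Dclk3 (1.0), Krt4 (1.0) and Neo1 (0.999) for Maob. For Ptgs1 they were Plk4 (0.979), Larp7 (0.979) and Actr3 (0.977), for Hpgds Osbpl8 (0.999), Slc31a2 (0.998) and Rgs13 (0.998), and for Ptgds Rpl17 (0.991), Mrpl24 (0.986) and Rps10 (0.979). For Alox5 they were Fam174b, Kcnq1 and Myo1d (0.999 each), for Alox5ap Gimap1 (0.935), Gimap6 (0.918) and Tbc1d10c (0.918), and for Ltc4s Rnf166 (0.997), Tmem9b (0.995) and Tmem86a (0.994). By rank correlation at most 1 of the 3 genes named for a member stayed among its 3.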

How the data were processed

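RNA of 48 libraries in 16 groups of 3 was sequenced on a NovaSeq instrument after PicoPure extraction and TruSeq V2 preparation, per the labels' protocols. The deposited table holds expected counts per gene, 71.5% of them within 0.01 of a whole number, and the sources used here name no aligner, counter, strand setting or annotation. The expected counts were rounded. Levels are CPM on TMM-scaled library sizes over all 48 libraries and carry no test.

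Tests were edgeR 4.0.16 quasi-likelihood tests (R 4.3.3, TMM, filterByExpr) with Benjamini-Hochberg adjustment over all genes. A fit held the 36 untransformed libraries (14059 genes, 7 of the 10 members). Another held the 12 transformed and 6 DMSO libraries (14403 genes, all 10 members). Clones of both genotypes were compared as sums of their 3 libraries (15865 genes, 2 residual degrees of freedom). SEs are the absolute log2 fold change over the square root of F. The test of a group against another was tried on simulated counts of 3 against 3 libraries. The tests of a difference in response and the clone sums were not tried in this way. Gene lengths and positions came from a GRCm38 annotation by identifier (25481 of 25528 genes) and promoters from RefSeq.

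Alternatives were DESeq2 1.42.0, its size factors, no filter, a transcript length offset, the replicate number as a block, each contrast fitted alone, all libraries in a single fit, clone libraries as replicates, and leaving out libraries. The members and lists were chosen with earlier results of these data known. Named list genes were up to 4 called per contrast with the largest change and at least 5 CPM, and several named in some clones are given in all 4. Depth ran from 22.5 to 114.4 M counts, and intervals cover counting error only.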

Additional observations from a re-analysis of the deposited data

Results flagged for a closer look

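The Etoposide response of Ptgds differed between genotypes by the test of the difference: it was smaller in E6l2-KO than in wildtype cells (−0.98 on the log2 scale) and smaller in Trp53-KO than in wildtype cells (−1.43). The Etoposide response of Alox5ap was also smaller in Trp53-KO than in wildtype cells (−0.29), but was 0.02 (adjusted p = 0.929) with an offset for transcript length and not called without wildtype Etoposide replicate 3 or Trp53-KO DMSO replicate 1 or 3 (adjusted p from 0.0673 to 0.0775). Its response to high cell density was larger in E6l2-Trp53-KO than in Trp53-KO cells (0.50), a call lost without Trp53-KO HCD replicate 2 or E6l2-Trp53-KO HCD or DMSO replicate 3 (adjusted p from 0.052 to 0.0574).

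In the transformed clones Alox5ap moved in opposite directions in the 2 genotypes. Every clone library lay above the DMSO libraries in Trp53-KO (mean difference 44.7 CPM) and below them in E6l2-Trp53-KO cells (mean difference −101 CPM). The difference between these changes was not tested.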

How the results depend on the processing

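The number of members called stayed within 1.5 times in 158 of 169 settings that left out no library. The exceptions were as follows. The Etoposide count went from 4 to 2 in E6l2-KO cells with the length offset, and from 4 to 0 in E6l2-Trp53-KO cells fitted alone. E6l2-KO against wildtype in DMSO went from 1 to 2 with DESeq2 or the length offset, and to 3 with no filter, fitted alone or with the replicate block. The Etoposide response of Trp53-KO against wildtype went from 2 to 1 with the length offset, where Alox5ap changed sign (0.02). With no filter, 1 member was called in place of 0 for the Etoposide response of E6l2-Trp53-KO against Trp53-KO (Slc18a2). The same held for the HCD response of Trp53-KO against wildtype (Alox5ap). With the 12 clone libraries as replicates, which they are not, 9 members differed in place of 5. The cause was not tested.

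Leaving out 1 library in turn, the count ran from 3 to 5 for Etoposide in wildtype, from 2 to 4 in E6l2-KO and from 1 to 3 in E6l2-Trp53-KO cells. In DMSO it ran from 1 to 2 for E6l2-KO against wildtype and from 2 to 4 for E6l2-Trp53-KO against Trp53-KO. It ran from 1 to 3 for the Etoposide response of Trp53-KO against wildtype, and from 0 to 1 for the Etoposide and for the HCD response of E6l2-Trp53-KO against Trp53-KO.

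The replicate numbers did not pair the samples: 5.05% of 198 same-numbered pairs correlated above 0.1 (median 0.01, from −0.16 to 0.38). The replicate block ended no call and added 3. Without the libraries over 60 M counts, 39 of 40 values kept their direction and side of the threshold. The exception was Hdc in clone 6 against clone 4 (0.13, adjusted p = 0.0774). Between libraries of a group, chi-square per degree of freedom was 61.8 and 73.5 for pairs with clone 12 replicate 3. It was 46.6 and 48.5 for pairs with E6l2-Trp53-KO Etoposide replicate 3, which that check kept, and at most 21.9 for all other pairs. Scaling by DESeq2's size factors changed no call among 189 values and moved 2 of 160 group levels by over 1 SD. Tph1, Maob and Alox5 were too low to test in untransformed cells at this depth.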
